A study of Mus musculus with 12 samples.

Results

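The genes described here are the myocyte enhancer factor genes *Mef2a*, *Mef2c* and *Mef2d*, the class IIa histone deacetylase genes *Hdac4*, *Hdac5*, *Hdac7* and *Hdac9*, and the salt-inducible kinase gene *Sik3*. They were chosen by gene symbol as a known regulatory circuit of cartilage, and each had 1 row, giving 8 of 36186 rows in the expression table. All 8 were among the 10936 genes tested, although *Hdac9* reached the required level of 5 NRPKM in only 3 of 12 libraries (1 WT hypertrophic and 2 *aadd*) and *Hdac7* in 8. NRPKM is the number of reads scaled to transcript length and library size (RPKM), normalized further between libraries.

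RNA-Seq was carried out on 12 libraries from the forelimb zeugopod (radius and ulna) of E15.5 mouse embryos on a mixed 129/CD-1 background, with 3 libraries in each of 4 groups. WT resting, WT proliferative and WT hypertrophic chondrocytes were each captured by laser microdissection (LCM). The *aadd* embryos carry homozygous frameshift mutations, made by LoxP insertion with a small deletion in the first coding exon, of *Hoxa9*, *Hoxa10*, *Hoxa11*, *Hoxd9*, *Hoxd10* and *Hoxd11* in all tissues, and these mutations need not remove the transcripts. The deposited labels name the hypertrophic group hyperproliferative and give resting as the compartment of the *aadd* libraries, which were not divided into compartments. Perichondrium, the tissue sheath around the cartilage, lies at the edge of what was captured, so every library can hold transcripts of it.

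MEF2 proteins are transcription factors that drive chondrocytes into hypertrophy, the enlargement that precedes bone formation. Class IIa histone deacetylases, above all HDAC4 in cartilage, bind MEF2 and RUNX2 in the nucleus and repress their target genes. SIK3 phosphorylates these deacetylases, which are then held in the cytoplasm by 14-3-3 proteins, whereas parathyroid hormone-related protein signals through its receptor and protein kinase A to return HDAC4 to the nucleus. Much of this control acts on protein phosphorylation and location, which RNA levels do not measure.

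Depth was modest, at about 1890000 to 3240000 reads per library (median 2590000) as read from the smallest values of single-exon genes. The estimate treats NRPKM as plain RPKM, so the further normalization between libraries can shift it. It covers only reads left after duplicates were removed. WT hypertrophic replicate 1 stood apart from replicates 2 and 3, with root mean square log2 differences of 1.11 and 1.04 against 0.613 between those. In WT hypertrophic replicates 1, 2 and 3 the summed level of 10 osteoclast markers was 59.3, 1379 and 1023 NRPKM, that of 9 macrophage markers (of 10 listed) 33.2, 536 and 430 NRPKM, and that of 10 endothelial markers 24.4, 324 and 227 NRPKM. Over the other 9 libraries these sums ran to at most 69.4, 62.7 and 59.9 NRPKM. The 10 cartilage matrix genes summed to 3106, 710 and 1008 NRPKM in WT hypertrophic replicates 1, 2 and 3. In every other library they summed to 2473 NRPKM or more, so cartilage transcripts were abundant in all 12. Replicate 1 was thus within the range of the other groups in this sum, and replicates 2 and 3 were below it. Osteoblast markers summed to 1658 to 4340 NRPKM in WT hypertrophic and to at most 1125 NRPKM elsewhere, and erythroid markers (8 of 10 listed) to 64.7 to 411 NRPKM in WT hypertrophic and 38.0 to 190 NRPKM elsewhere. Skeletal muscle markers summed to 137 NRPKM in WT proliferative replicate 3 and to at most 65.4 NRPKM in the other libraries. *Cldn5*, *C1qa* and *Klf1* were at 0 in all 3 WT proliferative libraries, *Bglap2* at 0 in WT resting, WT proliferative and *aadd*, and *Ocstamp* and *Dcstamp* at 0 in *aadd*.

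*Mef2c* was the member that differed most between compartments. The gene (Gene ID 17260) lies on the plus strand at chr13:83504034-83667079 of mm10. Its level was 10.4, 7.46 and 12.5 NRPKM in WT resting replicates 1 to 3, 52.4, 58.1 and 58.6 NRPKM in WT proliferative, 112, 66.8 and 76.8 NRPKM in WT hypertrophic, and 11.6, 12.9 and 13.4 NRPKM in *aadd*. Every proliferative and hypertrophic library was above every resting and *aadd* library, and the resting and *aadd* libraries overlapped. In these bulk samples, fewer cells that express a gene and less of its RNA per cell cannot be told apart.

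*Mef2c* rose 5.64-fold from WT resting (10.1 ± 2.51 NRPKM, SD, n = 3) to WT proliferative (56.3 ± 3.44), a log2 difference of 2.50 (SE 0.22, 95% interval 1.96 to 3.03; limma, adjusted P = 0.013). It was the only member to pass the criteria in that comparison (unadjusted P up to 0.05 and a fold change of at least 2), which 5.53% of all genes tested passed. With replicate number as a block the difference was the same and the adjusted limma P was 0.067, and without WT proliferative replicate 3 it was 0.064; over all alternatives it ran from 0.00086 to 0.067. Between these groups the 10 osteoblast markers went from 182 to 388 NRPKM in sum to 424 to 1125 NRPKM without overlap (6 of 8 tested passed higher), with *Bglap2* at 0 in both. The 9 macrophage markers went from 15.0 to 19.4 NRPKM in sum to 26.5 to 41.8 NRPKM without overlap (2 of 4 tested, *Tyrobp* and *Fcer1g*, passed higher), with *C1qa* at 0 in WT proliferative. Their part in the *Mef2c* differences, and that of the marker sums in WT hypertrophic given above, was not tested. From WT resting to WT hypertrophic (85.3 ± 24.0) *Mef2c* rose 8.33-fold, a log2 difference of 3.06 (SE 0.29, limma, adjusted P = 0.0044, and 0.022 with the block), with adjusted P from 5.9e-05 to 0.031 over the alternatives. Between WT proliferative and WT hypertrophic no library overlapped, but the log2 difference of 0.56 (95% interval -0.01 to 1.14, limma, adjusted P = 0.26) did not pass. WT resting libraries serve in 3 of the 4 comparisons, so these results are not independent of each other.

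In *aadd*, *Mef2c* had a log2 difference of 0.35 from WT resting (95% interval -0.17 to 0.87, limma, adjusted P = 0.68). The 3 *aadd* libraries (12.7 ± 0.924 NRPKM) lay far under the lowest proliferative library, a gap that no pairwise test was fitted to. Across the 4 groups *Mef2c* had an adjusted P of 7.5e-05 in limma's F test, which called 2 members (*Mef2a* and *Mef2c*) and 13.8% of all genes.

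**Figure D1:**
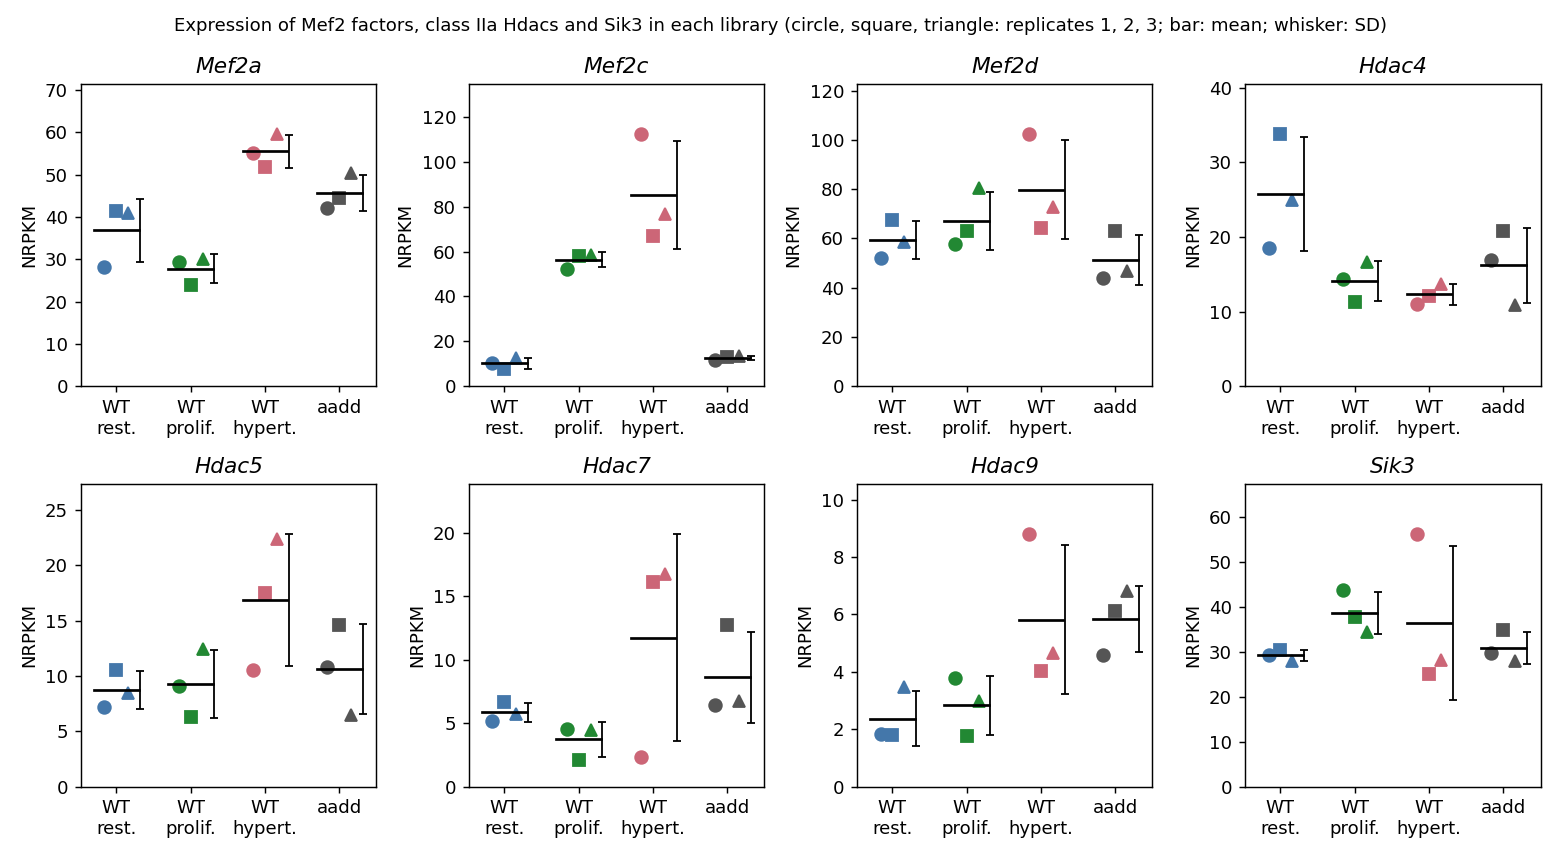
Level of each member in NRPKM (vertical axes, each from 0) in the 4 groups on the horizontal axes; circles, squares and triangles are replicates 1, 2 and 3, bars the mean and whiskers the SD (n = 3). *Mef2c* lies between 7.46 and 13.4 NRPKM in WT resting and *aadd* and between 52.4 and 112 NRPKM in WT proliferative and WT hypertrophic.

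*Mef2a* (Gene ID 17258, chr7:67233827-67372858, minus strand), a broadly expressed family member, had another order. It stood at 28.1, 41.4 and 40.9 NRPKM in WT resting, 29.3, 23.8 and 30.1 in WT proliferative, 55.2, 51.8 and 59.6 in WT hypertrophic, and 42.1, 44.4 and 50.3 in *aadd*. Hypertrophic libraries were above all others, *aadd* libraries came next, just above the highest resting library, and resting and proliferative libraries overlapped.

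*Mef2a* rose 2.01-fold from WT proliferative to WT hypertrophic (log2 difference 1.01, SE 0.18, limma, adjusted P = 0.12). It was the 1 member to pass there, where 9.67% of genes passed, 0 genes had an adjusted limma P under 0.05 and 2115 had an unadjusted P up to 0.05. The difference sits at the 2-fold limit, and fell under it with a pseudocount of 1 (0.98), under both other scalings (0.97 and 0.90), without WT proliferative replicate 2 (0.90) and without WT hypertrophic replicate 3 (0.95). Against WT resting the log2 difference was 0.61 in WT hypertrophic (limma, adjusted P = 0.13) and 0.33 in *aadd* (95% interval -0.16 to 0.81, adjusted P = 0.68), neither past the criteria. Its adjusted P in the 4-group limma test was 0.019, and it was 0.086 with no filter, 0.056 without WT proliferative replicate 2 and 0.074 without WT hypertrophic replicate 3, in a range of 0.0097 to 0.086.

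*Mef2d* (Gene ID 17261, chr3:88142395-88169640, plus strand) was the most abundant Mef2 gene per length in WT resting. Its values were 52.0, 67.5 and 58.6 NRPKM in WT resting, 57.7, 63.1 and 80.4 in WT proliferative, 102, 64.2 and 72.7 in WT hypertrophic, and 43.9, 63.0 and 46.9 in *aadd*. In order of mean level (WT hypertrophic, WT proliferative, WT resting, *aadd*) neighbouring groups overlapped, while all WT hypertrophic libraries were above all *aadd* libraries, a pair that was not tested. No comparison passed, the log2 differences from WT resting being 0.17, 0.40 and -0.22. The fourth family member, *Mef2b*, was at 0 to 0.919 NRPKM and was not tested.

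The 3 genes together summed to 90.6 to 116 NRPKM in WT resting, 139 to 169 in WT proliferative, 183 to 270 in WT hypertrophic and 97.6 to 120 in *aadd*. *Mef2c* made up 6.41 to 11.5% of that sum in WT resting, 34.6 to 40.1% in WT proliferative, 36.5 to 41.6% in WT hypertrophic and 10.8 to 12.1% in *aadd*. The *Mef2c* shares of *aadd* and WT resting overlapped and lay under those of the other groups, while *Mef2a* took 36.9 to 45.5% in *aadd* and 31.1 to 36.5% in WT resting.

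**Figure D2:**
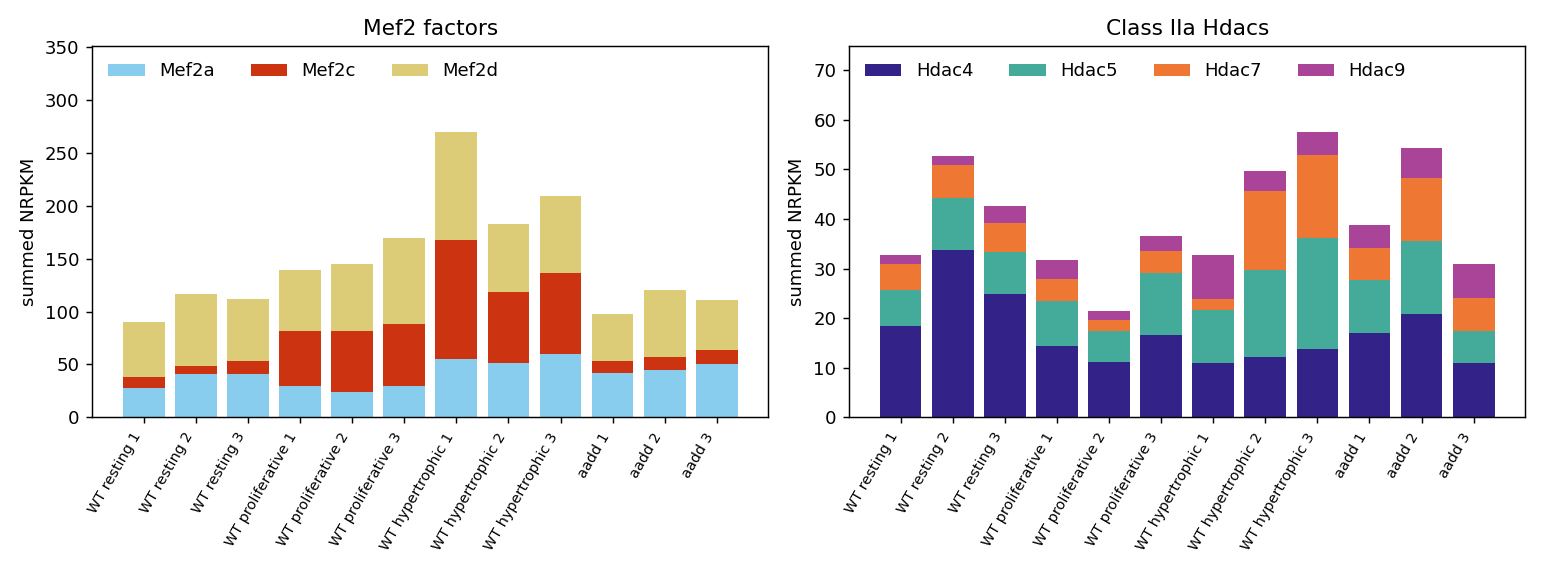
Summed NRPKM (vertical axes, from 0) of the Mef2 genes (left) and class IIa Hdac genes (right) in each of the 12 libraries (horizontal axes), stacked by gene. The *Mef2c* layer is 6.41 to 12.1% of the Mef2 bar in WT resting and *aadd* and at least 34.6% in WT proliferative and WT hypertrophic.

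Promoter windows of 300 bases (250 before to 50 after the start, RefSeq, GRCm38.p6) were found for all 8 members, 14 windows in all. The first *Mef2c* window (chr13:83503784-83504083, plus strand) is shown beside that of *Mef2d* (chr3:88142122-88142421, plus strand), as *Mef2c* differed most between compartments and *Mef2d*, its relative, passed in no comparison; capitals mark CG dinucleotides.
Mef2c: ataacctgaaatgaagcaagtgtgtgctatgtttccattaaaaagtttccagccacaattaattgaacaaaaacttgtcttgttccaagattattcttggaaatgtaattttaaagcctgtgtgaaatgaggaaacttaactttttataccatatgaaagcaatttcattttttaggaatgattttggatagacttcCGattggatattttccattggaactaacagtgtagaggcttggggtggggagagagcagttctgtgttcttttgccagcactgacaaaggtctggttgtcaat
Mef2d: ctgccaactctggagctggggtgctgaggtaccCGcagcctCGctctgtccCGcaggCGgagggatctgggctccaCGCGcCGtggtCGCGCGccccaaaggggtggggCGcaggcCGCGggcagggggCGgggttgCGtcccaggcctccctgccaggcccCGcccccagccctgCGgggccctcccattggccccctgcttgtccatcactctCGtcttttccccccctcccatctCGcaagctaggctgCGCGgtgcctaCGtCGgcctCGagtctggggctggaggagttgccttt
The *Mef2c* window holds 1 CG and the *Mef2d* window 24, against a median of 7 over all promoters, and windows at the other *Mef2c* starts hold 10 and 4. Which start was used cannot be read from values per gene.

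Both strands of the windows were searched for the MEF2 binding motif, the RUNX motif TGTGGT and the cAMP response element TGACGTCA. The MEF2 motif was present in *Mef2a* (chr7:67372809-67373108, minus strand) and *Hdac5* (chr11:102230123-102230422, minus strand), starting 2 and 20 bases before the start; these windows are shown with the motif in capitals.
Mef2a: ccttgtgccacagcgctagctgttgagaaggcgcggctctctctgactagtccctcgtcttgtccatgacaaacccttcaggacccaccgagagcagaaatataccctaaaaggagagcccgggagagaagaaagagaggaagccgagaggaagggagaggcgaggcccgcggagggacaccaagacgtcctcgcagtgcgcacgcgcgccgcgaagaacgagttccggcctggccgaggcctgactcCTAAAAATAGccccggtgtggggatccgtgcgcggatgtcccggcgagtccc
Hdac5: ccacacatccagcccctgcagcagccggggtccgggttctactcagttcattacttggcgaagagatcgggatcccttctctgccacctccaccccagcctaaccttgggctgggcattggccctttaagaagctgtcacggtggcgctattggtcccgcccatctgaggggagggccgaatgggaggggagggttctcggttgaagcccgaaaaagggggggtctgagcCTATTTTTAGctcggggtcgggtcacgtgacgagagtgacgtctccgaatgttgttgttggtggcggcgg
Of 32851 promoters of this length, 3.19% held the MEF2 motif, 16.8% the RUNX motif and 1.79% the cAMP response element. None of the 14 windows held the RUNX motif or the cAMP response element, which says only that these letters are not in these windows.

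*Hdac4* (Gene ID 208727, chr1:91932749-92180341, minus strand), the class IIa deacetylase whose loss is known to bring premature hypertrophy, had its highest mean in WT resting. Its level was 18.5, 33.8 and 24.9 NRPKM in WT resting, 14.3, 11.2 and 16.6 in WT proliferative, 11.0, 12.1 and 13.8 in WT hypertrophic, and 16.9, 20.8 and 10.9 in *aadd*. All resting libraries were above all proliferative and hypertrophic ones, and *aadd* libraries overlapped with every other group.

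*Hdac4* fell by 1.02 on the log2 scale from WT resting to WT hypertrophic (SE 0.26, limma, adjusted P = 0.069), 2.03-fold. The call was lost with a pseudocount of 1 (-0.97), without WT resting replicate 2 (-0.81) and without WT hypertrophic replicate 1 (-0.95). In WT proliferative the log2 difference from WT resting was -0.84 (limma, adjusted P = 0.22), under the 2-fold limit, and without WT resting replicate 1 it passed at -1.06. In *aadd* it was -0.67 (95% interval -1.41 to 0.08, limma, adjusted P = 0.58). It passed in 5 of 15 alternatives, among them without WT resting replicate 1 (-0.88) and without *aadd* replicate 2 (-0.87). Another was the replicate block, although the labels pair no *aadd* library with a WT resting one.

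Set against *Hdac4*, *Mef2c* no longer overlapped between WT resting and *aadd*, by the narrow margin of 0.564 to 0.621. WT proliferative and WT hypertrophic were also close in this ratio, at 5.17 and 5.51 for their nearest libraries. The ratio of *Mef2c* to *Hdac4* NRPKM was 0.564, 0.221 and 0.500 in WT resting, 3.66, 5.17 and 3.53 in WT proliferative, 10.2, 5.51 and 5.58 in WT hypertrophic, and 0.687, 0.621 and 1.23 in *aadd*. The groups did not overlap in this ratio, with *aadd* between WT resting and WT proliferative; the ratio joins values already described and was not tested.

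*Hdac5* (Gene ID 15184, chr11:102195747-102230172, minus strand), a paralog of *Hdac4*, stood at 7.17, 10.5 and 8.49 NRPKM in WT resting, 9.07, 6.25 and 12.4 in WT proliferative, 10.6, 17.5 and 22.4 in WT hypertrophic, and 10.8, 14.6 and 6.47 in *aadd*. Hypertrophic libraries were above resting ones by a narrow margin, at a log2 difference of 0.89 (limma, adjusted P = 0.14), under the 2-fold limit. It passed there without WT resting replicate 2 (1.03, with 11% of all genes) and without WT hypertrophic replicate 1 (1.19, with 19.2%), against 13% in the main fit. Against WT proliferative the difference was 0.84, and it passed without WT proliferative replicate 3 (1.08, with 7.87% of all genes) and without WT hypertrophic replicate 1 (1.14, with 18.4%), against 9.67% in the main fit. Within WT hypertrophic the osteoclast, macrophage and endothelial sums given above were also lowest in replicate 1, and their part in the *Hdac5* values was not tested. The differences of WT proliferative and *aadd* from WT resting, 0.05 and 0.22, were within the spread of the libraries.

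*Hdac7* (Gene ID 56233, chr15:97792664-97844502, minus strand), known for its part in endothelial cells and thymocytes, was split within the WT hypertrophic group. Its values were 5.14, 6.66 and 5.72 NRPKM in WT resting, 4.52, 2.13 and 4.48 in WT proliferative, 2.34, 16.1 and 16.8 in WT hypertrophic, and 6.40, 12.8 and 6.72 in *aadd*. The highest libraries were WT hypertrophic replicates 2 and 3, followed by *aadd* replicate 2.

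No comparison of *Hdac7* passed, with a log2 difference of 1.27 between WT hypertrophic and WT proliferative (95% interval -0.67 to 3.22, limma, adjusted P = 0.40). Without WT hypertrophic replicate 1 it was 2.19 (limma, adjusted P = 0.021, from 0.021 to 0.74 over the alternatives), and 1.48 against WT resting (adjusted P = 0.0048, from 0.0048 to 0.96). The same 3 high libraries had the largest endothelial marker sums (324, 227 and 59.9 NRPKM) and macrophage sums (536, 430 and 62.7 NRPKM). They also had the largest erythroid sums (373, 411 and 190 NRPKM). Their osteoclast sums were 1379, 1023 and 59.0 NRPKM, the last below the 69.4 NRPKM of WT resting replicate 2. The part of these cell types in the *Hdac7* values was not tested. The overlapping end of *Slc48a1* (2.62 to 20.1 NRPKM) could share reads with *Hdac7*, which rested on about 17 reads in its lowest library.

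**Figure D3:**
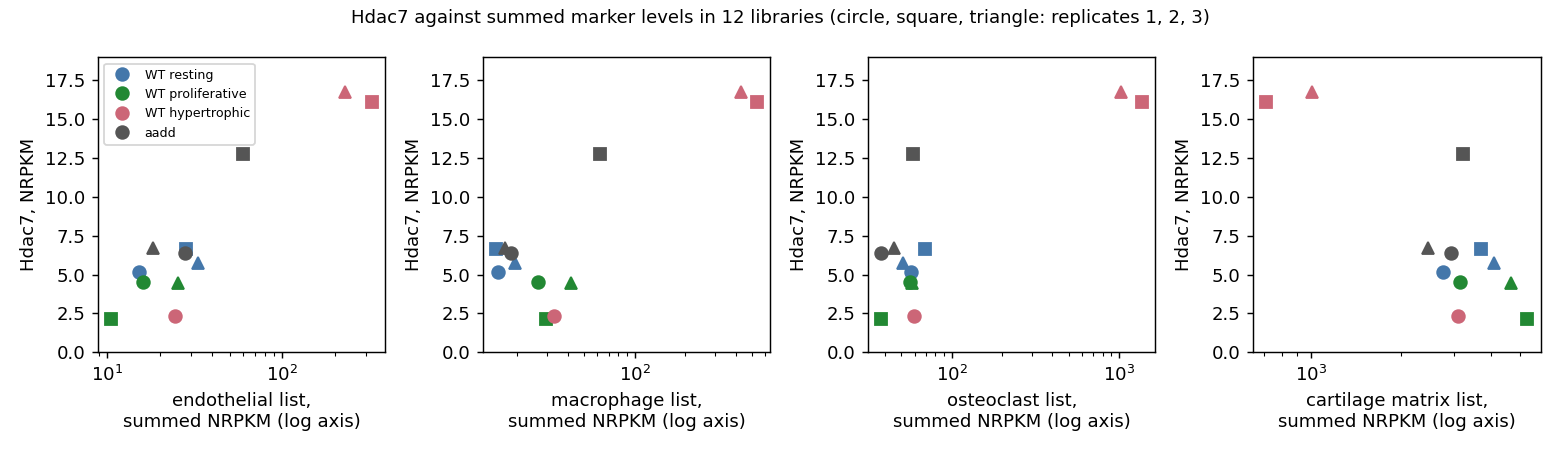
*Hdac7* in NRPKM (vertical axes) against the summed NRPKM of endothelial, macrophage, osteoclast and cartilage matrix markers (horizontal log axes) in 12 libraries, coloured by group, with circles, squares and triangles for replicates 1, 2 and 3. WT hypertrophic replicates 2 and 3, at 16.1 and 16.8 NRPKM, have the highest endothelial, macrophage and osteoclast sums.

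*Hdac9* (Gene ID 79221, chr12:34047582-34917095, minus strand), which also yields a short form without the catalytic domain, was the least abundant member. It stood at 1.83, 1.79 and 3.48 NRPKM in WT resting, 3.77, 1.75 and 2.97 in WT proliferative, 8.78, 4.02 and 4.66 in WT hypertrophic, and 4.57, 6.12 and 6.82 in *aadd*. All *aadd* and hypertrophic libraries were above all resting and proliferative ones.

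*Hdac9* was the 1 member past the criteria between *aadd* and WT resting (unadjusted P up to 0.05 and a fold change of at least 1.5, met by 6.56% of genes), higher 2.49-fold in *aadd* with a log2 difference of 1.31 (SE 0.30, limma, adjusted P = 0.25). *Hdac9* entered the tests through libraries of the groups where it is high, and it was not tested under the 2 stricter filters. That it met the criteria in the 13 alternatives in which it was tested therefore adds no support to the call. It rested on about 27 to 163 reads. The 10 skeletal muscle markers summed to 46.7, 65.4 and 18.8 NRPKM in *aadd* replicates 1, 2 and 3 and to 11.6, 7.71 and 10.9 NRPKM in WT resting, without overlap, and both muscle markers tested passed higher in *aadd* (*Actc1* at 2.97 and *Mylpf* at 1.82 on the log2 scale). Endothelial markers summed to 18.3 to 59.9 NRPKM in *aadd* and 15.2 to 33.2 NRPKM in WT resting. The 9 macrophage markers summed to 18.4, 62.7 and 17.0 NRPKM in *aadd* replicates 1, 2 and 3 and to 15.0 to 19.4 NRPKM in WT resting, and *Tyrobp*, 1 of 4 tested, passed higher in *aadd* (3.33 on the log2 scale, from 0.372 to 4.54 NRPKM). None of these markers was at 0 in all 3 libraries of either group, and their part in the *Hdac9* difference was not tested.

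From WT resting to WT hypertrophic *Hdac9* rose 2.37-fold (log2 difference 1.24, SE 0.39, limma, adjusted P = 0.11). That call was lost with a pseudocount of 1 (0.99) and without WT resting replicate 1 (1.10), WT resting replicate 2 (1.08) or WT hypertrophic replicate 1 (0.91). From WT proliferative to WT hypertrophic it had a log2 difference of 0.99, just under the limit, and passed without WT proliferative replicate 1 (1.23) or WT hypertrophic replicate 2 (1.21). Between WT hypertrophic and WT resting, where 13% of all genes passed, the members past the criteria were *Mef2c*, *Hdac4* and *Hdac9*. Under both stricter filters, which leave *Hdac9* out, they were *Mef2c* and *Hdac4*.

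The 4 deacetylase genes summed to 32.6 to 52.7 NRPKM in WT resting, 21.4 to 36.5 in WT proliferative, 32.7 to 57.6 in WT hypertrophic and 30.9 to 54.3 in *aadd*, so the sums overlapped. *Hdac4* made up 56.7 to 64.1% of the sum in WT resting, 45.2 to 52.6% in WT proliferative, 23.9 to 33.6% in WT hypertrophic and 35.2 to 43.7% in *aadd*. The groups did not overlap in this share, with *aadd* between WT proliferative and WT hypertrophic.

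*Sik3* (Gene ID 70661, chr9:46012820-46224194, plus strand), the kinase that restrains class IIa deacetylases, stood at 29.4, 30.5 and 28.0 NRPKM in WT resting, 43.7, 37.8 and 34.6 in WT proliferative, 56.2, 25.1 and 28.2 in WT hypertrophic, and 29.8, 35.0 and 27.9 in *aadd*. Proliferative libraries were above resting ones, at a log2 difference of 0.39 (limma, adjusted P = 0.29), which is under the 2-fold limit. In WT hypertrophic, replicate 1 was above all other libraries and replicate 2 below them all, and *aadd* differed from WT resting by 0.07 (95% interval -0.31 to 0.45).

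**Figure D4:**
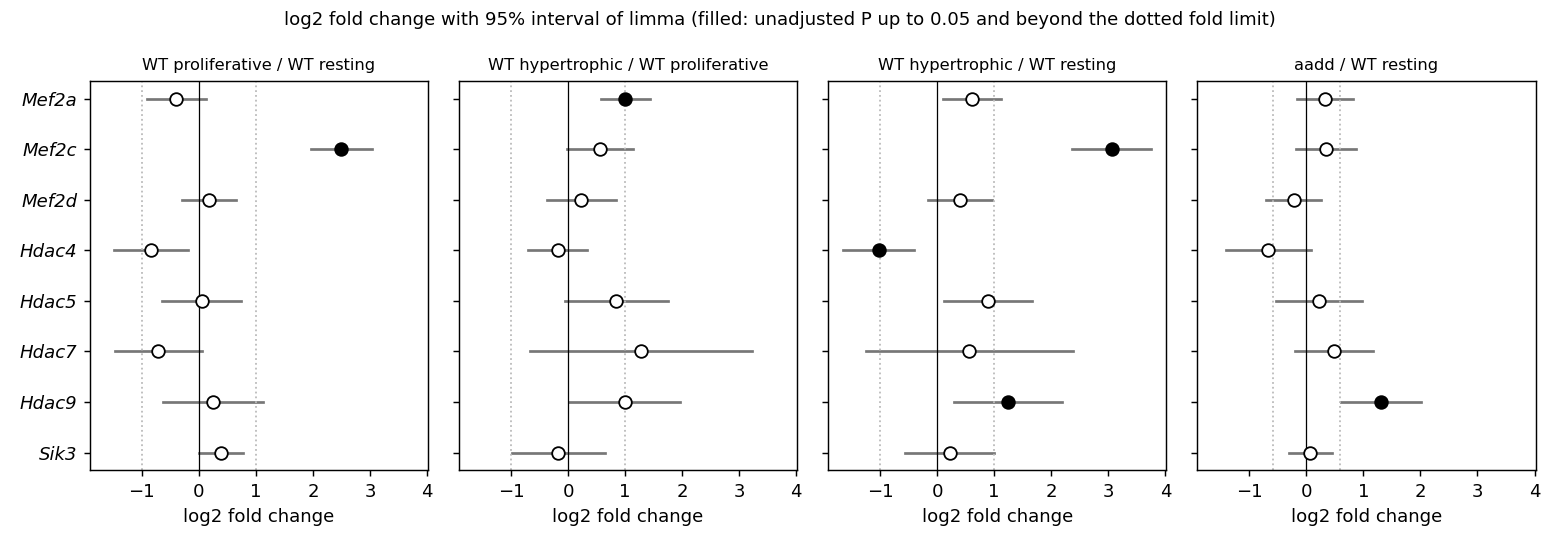
Log2 fold change of each member (horizontal axes) with its 95% interval from limma in the 4 comparisons; filled points passed the criteria and dotted lines mark the fold limits. *Mef2c* has the largest values, 2.50 and 3.06, against WT resting, and *Hdac9*, at 1.31, is the filled point between *aadd* and WT resting.

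Libraries of the groups compared did not overlap for 4 of 8 members between WT proliferative and WT resting (24% of all genes), 3 between WT hypertrophic and WT proliferative (24.2%), 5 between WT hypertrophic and WT resting (32%) and 2 between *aadd* and WT resting (15.4%). *Hdac9* is among the 3, the 5 and the 2, and it entered the tests only through libraries of the groups where it is high. With so few genes these counts are a description. The members' median log2 differences were 0.11, 0.70, 0.59 and 0.27, against -0.06, 0.04, -0.02 and 0.01 over all genes. With 3 libraries a side, an exact permutation test of a single gene cannot go below P = 0.1.

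Of 37 partners and regulators of the circuit, 33 were tested. Between WT proliferative and WT resting 1 was higher and 1 lower, against 5.53% of all genes past the criteria. *Pth1r*, the receptor for parathyroid hormone-related protein, rose from 16.9 to 73.5 NRPKM between WT resting and WT proliferative (log2 difference 2.11, limma, adjusted P = 0.0087). *Pthlh*, its ligand gene, fell from 17.8 to 3.84 NRPKM (log2 difference -2.24, adjusted P = 0.034). With replicate number as a block both still passed the criteria, and the adjusted limma P was 0.066 for *Pth1r* and 0.069 for *Pthlh*. At an unadjusted P up to 0.05 alone, limma gave 1 of the 33 higher and 7 lower, against 17.1% of all genes. Ligand and receptor thus moved in opposite directions between those compartments, and in *aadd*, at 22.6 and 12.4 NRPKM, neither passed against WT resting.

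Between WT hypertrophic and WT resting 1 of the 33 was higher, *Pth1r* (2.58), and 3 were lower, *Pthlh* (-3.74), *Zfp521* (-1.66, limma, adjusted P = 0.0058), a nuclear repressor of RUNX2, and *Camk4* (-1.44), a kinase of class IIa deacetylases, against 4 higher and 7 lower by limma at an unadjusted P up to 0.05 alone. Over all genes these shares were 13% and 26.4%. Between WT hypertrophic and WT proliferative 0 were higher and 1 lower, *Camk4* (-1.38), against 3 and 5 by limma at an unadjusted P up to 0.05 alone, and over all genes the shares were 9.67% and 19.3%. Without WT hypertrophic replicate 1 the counts past the criteria were 1 and 2, against 18.4% of all genes. Without that replicate *Camk4* stood at -1.97 against WT proliferative and -2.03 against WT resting, and *Pthlh* at -4.65 against WT resting. In *aadd* 1 was higher than in WT resting, *Prkd1* (0.80, adjusted P = 0.32), another kinase of these deacetylases, and 0 were lower, against 2 and 1 at an unadjusted P up to 0.05 alone, with shares over all genes of 6.56% and 9.58%. The list's counts past the criteria were thus near or below those shares. The median log2 difference of the list was within 0.1 of that of all genes in every comparison.

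Of 11 hypertrophy genes, 7 were higher and 0 lower (8 and 1 by limma at an unadjusted P up to 0.05 alone) in WT proliferative than in WT resting, where 5.53% of all genes passed (17.1% unadjusted), with *Ihh* at 5.58, *Alpl* at 5.37, *Ibsp* at 4.70, *Col10a1* at 4.48 and *Sp7* at 4.10 on the log2 scale. The same 7 passed with the replicate block, but those with an adjusted limma P under 0.05 went from 4 to 2, with *Ihh* at 0.0087 and 0.054 with the block and *Alpl* at 0.023 and 0.069. Over all genes 6.14% passed the criteria with the block, and those with an adjusted limma P under 0.05 went from 68 to 9. In WT hypertrophic 8 were higher and 1 lower than in WT resting (13% of all genes). The list was not divided by role, so a gene counted as lower does not by itself run against hypertrophy. The higher ones were led by *Ibsp* at 7.34, *Alpl* at 7.21, *Col10a1* at 5.93, *Mmp13* at 5.36, *Ihh* at 5.11 and *Spp1* at 5.02. The lower one was *Sox9* (-2.35), at 143, 12.9 and 17.6 NRPKM in WT hypertrophic replicates 1, 2 and 3. WT hypertrophic replicates 1, 2 and 3 were split for *Mmp13* (3.05, 735 and 661 NRPKM, with 2.45 to 2.88 in WT resting) and for *Spp1* (24.1, 1083 and 979 NRPKM). In these replicates the osteoclast sums (59.3, 1379 and 1023 NRPKM), macrophage sums (33.2, 536 and 430) and endothelial sums (24.4, 324 and 227) were also lowest in replicate 1. Their part in the hypertrophy genes was not tested. Without WT hypertrophic replicate 1 the log2 differences from WT resting were 7.95 for *Mmp13*, 6.82 for *Spp1*, 4.37 for *Ihh* and -3.42 for *Sox9*. Of the 11, 3 (*Sp7*, *Ibsp* and *Spp1*) are also in the osteoblast list and make up part of its sum. The other 7 osteoblast genes summed to 155 to 376 NRPKM in WT resting, 270 to 736 in WT proliferative, 791 to 1876 in WT hypertrophic and 117 to 397 in *aadd*, and their part in these counts was not tested. Against WT proliferative 4 were higher (*Spp1*, *Ibsp*, *Alpl* and *Col10a1*) and 1, *Sox9*, lower (-2.42), with 9.67% of all genes past the criteria. Without WT hypertrophic replicate 1 the counts were 5 and 3 (18.4% of all genes), with *Sox9* at -3.49 and *Spp1* at 6.25. In *aadd* 0 were higher and 2 lower than in WT resting (also 0 and 2 by limma at an unadjusted P up to 0.05 alone). Over all genes these shares were 6.56% and 9.58%. The 2 were *Runx3* (25.8 to 5.01 NRPKM, log2 difference -2.22, limma, adjusted P = 0.13) and *Vegfa* (-0.66).

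Of 8 MEF2 target genes known from other tissues, 5 were tested, and 0 passed between WT compartments by limma. At an unadjusted P up to 0.05 alone 0 did between WT proliferative and WT resting (17.1% of all genes), 1 was higher and 1 lower between WT hypertrophic and WT proliferative (19.3%), and 2 were higher and 1 lower between WT hypertrophic and WT resting (26.4%). Between *aadd* and WT resting, where 6.56% of all genes passed, 2 of the 5 did, both higher: *Jun*, an immediate early gene, from 7.28 to 16.4 NRPKM (log2 difference 1.16, limma, adjusted P = 0.076), and *Klf2*, a flow-responsive transcription factor gene (0.70, adjusted P = 0.47). At an unadjusted P up to 0.05 alone limma also gave 2 higher and 0 lower (9.58% of all genes). Skeletal muscle markers summed to 18.8 to 65.4 NRPKM in *aadd* and 7.71 to 11.6 NRPKM in WT resting, and the macrophage marker *Tyrobp* passed higher. Their part in the *Jun* and *Klf2* differences was not tested.

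By root mean square log2 difference over 12 libraries after centring, the genes nearest to *Mef2c* were *Ttll3* (0.363), *Pth1r* (0.384) and *Lbh* (0.386), against a median of 1.41 over all genes. Nearest to *Hdac4* were *Adck4* (0.202), *Evi5l* (0.207) and *Azi1* (0.214), against 0.629. All share the same libraries, so the likeness is a description.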

How the data were processed

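Chondrocytes were captured by LCM, and 20 ng of RNA per library was amplified and sequenced. The authors aligned reads to mm10 (TopHat in the submitters' processing notes), removed reads with several alignments and duplicates, and deposited RPKM values normalized between libraries (NRPKM) by a method not given in the sources used here. The deposited values hold no counts. Amplification and duplicate removal can distort levels, and strand use is not stated.

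The scale was log2(NRPKM + 0.1), and fits were made in limma 3.58.1 with R 4.3.3. Tables and plots used pandas 2.3.3, matplotlib 3.10.9, numpy 2.4.6 and Python 3.11.15. Fold changes are on that scale, which understates those of low genes. Entry required 5 NRPKM or more in 3 or more of the 12 libraries. Each two-sided comparison used 6 libraries, with Benjamini-Hochberg adjustment over all genes tested. The criteria were an unadjusted P up to 0.05 with a minimum fold change of 2 (WT comparisons) or 1.5 (*aadd*). Depth and reads per gene were estimated from the steps of low values and the longest coding transcript, and cover counting error only.

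Members, lists and tests were chosen with earlier results of these data known. The text names all members, up to 6 list genes per comparison that passed without overlap (by size of difference), others where a count is 5 or fewer, and the 3 genes most like *Mef2c* and *Hdac4*. Labels do not state separate animals, so P values measure the spread between these libraries. Same-numbered libraries deviated together between WT resting and WT proliferative (r of 0.281, 0.179 and 0.198 across genes), so the block is given there for results whose call or count it changes; in the other comparisons at least 1 pair was at or under 0.1. Alternatives covered the pseudocount, filters, scalings, all 12 libraries in 1 fit, the replicate block, a variance trend and each library left out.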

Additional observations from a re-analysis of the deposited data

How the results depend on the processing

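Precision is limited by 3 libraries a group, by shallow depth for *Hdac7* and *Hdac9*, and by the split within WT hypertrophic. Leaving out WT hypertrophic replicate 1 keeps replicates 2 and 3, which had the lowest cartilage matrix sums (710 and 1008 NRPKM). Members past the criteria between WT hypertrophic and WT proliferative numbered 0 with a pseudocount of 1 (9.09% of all genes), 0 with median of ratios rescaling (9.55%) and 0 with quantile normalization (8.73%). On leaving out 1 library they numbered 0 to 3 (3 without WT hypertrophic replicate 1: *Mef2a*, *Hdac5* and *Hdac7*, where the share of all genes went from 9.67 to 18.4%). Between WT hypertrophic and WT resting 1 member passed with a pseudocount of 1 (11.8% of all genes). Between *aadd* and WT resting, where 6.56% of all genes passed in the main fit, 0 members passed under either stricter filter, which leaves *Hdac9* out (6.04 and 6.7% of all genes). The number was 2 with all 12 libraries in 1 fit (4.83%), 2 with the variance trend (6.39%), 2 with the replicate block (7.21%) and 1 to 2 on leaving out 1 library (5 to 9.12%). For that block, the labels pair no *aadd* library with a WT resting one. Leaving out 1 library gave 1 to 2 between WT proliferative and WT resting (4.65 to 7.4% of all genes), and 1 to 4 in the 4-group test (4 without WT hypertrophic replicate 1, where the share of all genes went from 13.8 to 28.1%), while no filter gave 1 (3.93%). The cause was not tested beyond the filters' own construction.

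Signs turned on leaving out 1 library for *Hdac5* between WT proliferative and WT resting (-0.19 to 0.30) and between *aadd* and WT resting (-0.043 to 0.54), and for *Sik3* between WT hypertrophic and WT proliferative (-0.53 to 0.047), WT hypertrophic and WT resting (-0.14 to 0.44) and *aadd* and WT resting (-0.020 to 0.14). None of these differences passed in limma. Counting each member's result once under each alternative, 583 such values kept direction and side of the threshold, 15 fell short of it, 18 passed it and 6 changed sign.

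Counts over all genes moved more. Between WT proliferative and WT resting 605 genes passed (280 higher), 1495 with no filter (940 higher) and 610 with quantile normalization (357 higher), and 68 had an adjusted P under 0.05, 9 with the replicate block. Between WT hypertrophic and WT proliferative that number was 0, 705 with all 12 libraries in 1 fit and 1905 without WT hypertrophic replicate 1. Between WT hypertrophic and WT resting it was 696, 241 with the replicate block and 2651 without WT hypertrophic replicate 1, and between *aadd* and WT resting 13 and, with the block, 0. The pathway counts and values without WT hypertrophic replicate 1, those with the replicate block between WT proliferative and WT resting, and the osteoblast sum without shared genes, were chosen after seeing the data.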

Other observations

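The microRNA miR-140 is known to repress *Hdac4* in cartilage. The row of its gene *Mir140*, looked up after its values were seen, stood at 27.8, 83.8 and 82.0 NRPKM in WT resting, 10.4, 39.6 and 55.4 in WT proliferative, 0, 6.30 and 3.65 in WT hypertrophic, and 87.9, 78.5 and 37.4 in *aadd*. Its host gene *Wwp2* was between 186 and 232 NRPKM in WT resting, between 147 and 174 in WT proliferative, and between 170 and 208 in *aadd*. In WT hypertrophic replicates 1, 2 and 3 *Wwp2* stood at 101, 25.9 and 29.6 NRPKM. Both had their lowest values in WT hypertrophic, but within that group replicate 1 was the lowest for *Mir140* and the highest for *Wwp2*. The *Mir140* row lies within *Wwp2*, so their reads cannot be told apart, and the mature microRNA was not measured by these libraries.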
